A study of Mus musculus with 12 samples.

Results

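Klhl32, Slc6a2, Il13ra2, Cd200, Ahnak, Rasgrf1, Arl4c and Micall1 are 8 genes whose transcripts were lower in GFPtotal than in GFPlow mesenchymal cells of the mouse uterus. They are 8 of 47729 genes in the count tables and 8 of the 14523 that had enough counts to be tested. The genes were selected on the measured counts themselves, because the GFPtotal libraries lay below the GFPlow libraries, with no stated threshold. Their difference between the groups is therefore a description here, given with no p-value.

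The cells were sorted by flow cytometry from digested uteri of healthy, cycling female Pdgfrb-BAC-eGFP mice. In this strain a bacterial artificial chromosome carries green fluorescent protein (GFP) under the regulatory sequence of Pdgfrb, the gene of a platelet-derived growth factor receptor found on mesenchymal cells. GFPtotal (the Naive libraries) is the whole GFP-positive population, in which bright perivascular cells and dim stromal fibroblasts are mixed. GFPlow (the Stromal libraries) holds the dim fibroblasts alone. All libraries carry the reporter, and there were 6 libraries per group from a series of 12 mice. The labels do not state age, cycle stage or which mouse gave which library, so the errors below measure the spread between libraries. The dim cells are also part of GFPtotal, so a gene with no transcript in bright cells would still be read there. In bulk libraries fewer cells of a type and less RNA per cell cannot be told apart.

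Libraries held 12631266 to 14950639 counts in GFPtotal and 14339804 to 18425596 in GFPlow. Mitochondrial transcripts took 32.4% to 49.0% of them in GFPtotal and 35.1% to 45.7% in GFPlow. Levels are CPM, counts scaled to library size after adjustment by the TMM method (trimmed mean of M-values). The sort was visible in marker sums. For pericytes, the contractile cells that wrap small vessels, the sum of 8 markers was 865 to 1518 CPM in GFPtotal, against 4.12 to 16.7 CPM in GFPlow (exact two-sided permutation test, p = 0.00216, the smallest value possible, adjusted p = 0.00722 over 10 lists). Fibroblast markers were abundant in both groups, with sums of 19233 to 32240 CPM in GFPtotal, against 12364 to 18733 CPM in GFPlow (exact permutation test, adjusted p = 0.00722). Without the collagen gene Col3a1 these sums overlapped, at 9463 to 20944 CPM in GFPtotal against 6114 to 11608 CPM in GFPlow. Most of what was left was Col1a1, another collagen gene, at 5307 to 17118.5 CPM in GFPtotal against 3975 to 7900 CPM in GFPlow. Smoc2, on the same list, was lower in every GFPtotal library, at 6.65 to 29.2 CPM, than in any GFPlow library, at 36.0 to 57.9 CPM. No other gene of that list had this pattern. Col3a1 had the opposite one, at 8338 to 13934 CPM in GFPtotal against 6250 to 7840 CPM in GFPlow. GFPtotal 3, 4 and 5 stood apart from the other 9 libraries on the first principal component. The counts deposited for GFPlow 6 carry an alignment named N8 in their header, a name of the kind used for GFPtotal, while the other 11 libraries carry the name in their label. Its pericyte marker sum of 16.7 CPM was the highest of GFPlow and far below any GFPtotal library. Values without these libraries are given where they change a call or move a value by over 1.5-fold, and for all 8 genes at the end.

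Stromal fibroblasts make up much of the endometrial wall. They support the glands and vessels, answer to ovarian steroids and change form to receive an embryo. The 8 genes belong to no single pathway. Slc6a2, Il13ra2 and Cd200 act at the cell surface, as a transporter, a receptor and a ligand. Rasgrf1 and Arl4c act in small GTPase signalling, Micall1 and Ahnak in membrane traffic and membrane scaffolding, and Klhl32 belongs to a family of ubiquitin ligase adaptors.

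All 8 genes were tested, and for all 8 every GFPtotal library lay below every GFPlow library. Among all tested genes 0.806% had that pattern and 2.86% the opposite one. At an adjusted p below 0.05 edgeR called 5.41% of all genes, 0.854% lower (124 genes) and 4.55% higher, and the 8 genes were among the 124. Both patterns come from the contrast on which the genes were selected. The log2 fold changes (GFPtotal minus GFPlow) ran from −2.43 to −0.86 with a median of −1.59, beside a median of −0.000599 over all tested genes and −1.15 over the 124. By size of change the 8 genes took places 14 to 89 among the 124, with Slc6a2 and Klhl32 at 14 and 16 and Ahnak at 89. The nearest libraries of the groups lay close together. The lowest GFPlow level was 1.06 times the highest GFPtotal level for Slc6a2 and 1.30 times for Cd200, and the other 6 genes lay between. Klhl32, Cd200, Ahnak, Rasgrf1 and Micall1 were among the genes called lower under all 20 other settings. Slc6a2 was not among them under 8 of the 20, Arl4c under 6 and Il13ra2 under 2. For Slc6a2 these included leaving out GFPtotal 2, 3 or 5 or GFPlow 2 or 3 alone, and for Arl4c leaving out GFPtotal 4 or 5 or GFPlow 2, 3 or 6 alone. All these settings share the contrast on which the genes were selected. The calls therefore describe how each gene depends on the setting and lend the genes no support.

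**Figure D1:**
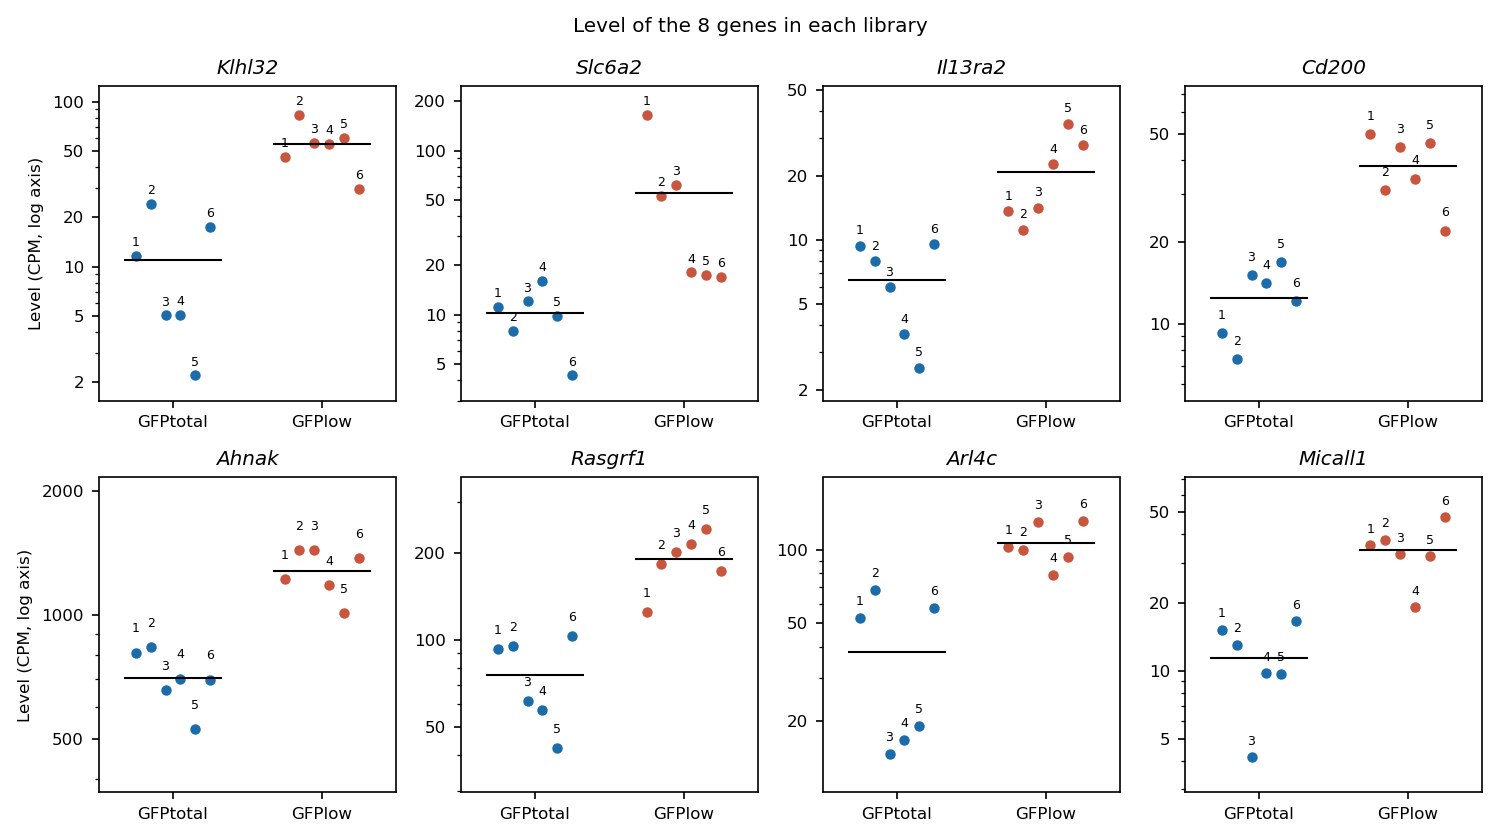
Level of each of the 8 genes (CPM, logarithmic axis) in the 6 GFPtotal and 6 GFPlow libraries, with the replicate number beside each point and the group mean as a line. In all 8 panels the GFPtotal points lie below the GFPlow points, and Slc6a2 spreads most widely in GFPlow, from 17.0 to 165 CPM.

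Per transcript length the genes covered a wide range of levels. On the RPKM scale (CPM per kilobase of exon) Ahnak stood highest, at 38.1 ± 5.97 in GFPtotal and 69.0 ± 9.17 in GFPlow (SD, n = 6 each). Arl4c averaged 6.95 ± 4.37 RPKM in GFPtotal and 19.3 ± 3.77 RPKM in GFPlow. For Rasgrf1 the means were 6.82 ± 2.24 RPKM in GFPtotal and 17.2 ± 3.61 RPKM in GFPlow. In both groups Ahnak was the 1 gene whose mean ± SD was clear of its neighbour in this order, and the other neighbours overlapped. Cd200 had 3.76 ± 1.09 RPKM in GFPtotal and 11.4 ± 3.22 RPKM in GFPlow, and Il13ra2 had 2.85 ± 1.30 RPKM in GFPtotal and 9.06 ± 4.11 RPKM in GFPlow. Slc6a2, Klhl32 and Micall1 were at 1.66 ± 0.644, 1.39 ± 1.08 and 1.70 ± 0.673 RPKM in GFPtotal and 8.96 ± 9.26, 7.06 ± 2.24 and 5.11 ± 1.38 RPKM in GFPlow.

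Slc6a2 (ENSMUSG00000055368, chromosome 8, 92960079 to 93001667, plus strand, GRCm38) encodes the plasma membrane noradrenaline transporter, best known from sympathetic nerve endings, where it takes released noradrenaline back up. Its level in GFPtotal ran from 4.28 to 16.1 CPM with a median of 10.5 CPM, and in GFPlow from 17.0 to 165 CPM with a median of 35.5 CPM. GFPlow spread out: GFPlow 1 stood at 165 CPM, GFPlow 2 and 3 at 52.9 and 61.7 CPM, and GFPlow 4, 5 and 6 at 18.1, 17.5 and 17.0 CPM. Its coefficient of variation in GFPlow was 103%, the largest of the 8 genes in either group. A log2 fold change of −2.43 (SE 0.58) was fitted, and −1.71 without GFPlow 1. Without GFPtotal 3, 4 and 5 it was −2.84, and Slc6a2 was not among the genes called. The GFPtotal mean was 18.5% of the GFPlow mean, and the GFPtotal median 29.6% of the GFPlow median.

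Neuron markers were read beside Slc6a2. The sum of 12 markers was 0.466 to 9.35 CPM in GFPtotal, against 8.09 to 21.3 CPM in GFPlow (exact two-sided permutation test, p = 0.00433, adjusted p = 0.0108 over 10 lists). In GFPlow nearly all of it was Syt1, which encodes a synaptic vesicle calcium sensor and ran from 0.123 to 9.35 CPM in GFPtotal and from 7.27 to 20.6 CPM in GFPlow. Without Syt1 the other 11 markers summed to at most 1.72 CPM in GFPtotal and 1.18 CPM in GFPlow. Nefl, a neurofilament gene, had 0 counts in all 12 libraries. GFPlow 1, with the highest Slc6a2 level, had the lowest neuron marker sum of GFPlow. Syt1 made up 7.27 CPM of that 8.09 CPM, so this order rests on 1 gene. A neuronal source of Slc6a2 was not tested. Schwann cell markers summed to 2.48 to 10.7 CPM in GFPtotal, against 1.67 to 5.78 CPM in GFPlow (exact permutation test, adjusted p = 0.127, and 0.0433 without GFPtotal 1).

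**Figure D2:**
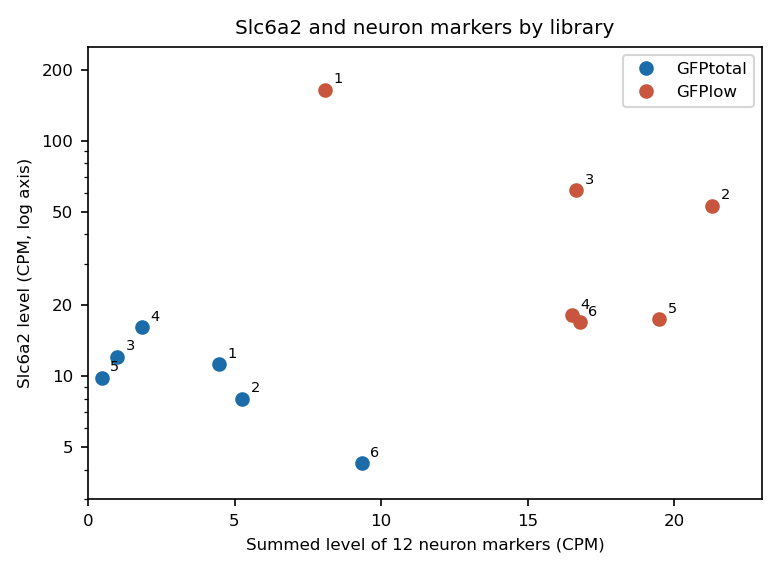
Slc6a2 level (CPM, logarithmic axis) against the summed level of 12 neuron markers (CPM) in each library, with the replicate number beside each point and GFPtotal and GFPlow in different colours. GFPlow 1 combines the highest Slc6a2 level, 165 CPM, with the lowest marker sum of GFPlow, 8.09 CPM. In GFPlow nearly all of the sum is Syt1.

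Few other genes of monoamine handling had enough counts. Of 24 listed genes 6 were tested, and edgeR called 0 in either direction (median log2 fold change 0.21, with 3 of the 6 negative). The largest change was that of Adra1a, an adrenergic receptor gene, whose groups overlapped. It averaged 11.1 ± 5.61 CPM in GFPtotal and 3.71 ± 3.62 CPM in GFPlow (log2 fold change 1.58, SE 0.51, edgeR adjusted p = 0.0830). The related transporter gene of dopamine, Slc6a3, had 0 counts in all 12 libraries, and that of serotonin, Slc6a4, had 28 counts in all, with 0 in GFPlow. Th, which encodes the enzyme that starts catecholamine synthesis, had 0 counts in all libraries, and Dbh, the gene of the enzyme that makes noradrenaline, had 111 counts over all 12. Slc18a2, the vesicular monoamine transporter gene, averaged 12.3 ± 3.41 CPM in GFPtotal and 8.57 ± 3.05 CPM in GFPlow (log2 fold change 0.52, SE 0.30, edgeR adjusted p = 0.357). Maoa, which encodes a mitochondrial monoamine oxidase, averaged 22.0 ± 6.89 CPM in GFPtotal and 23.8 ± 8.91 CPM in GFPlow (log2 fold change −0.11, SE 0.28, edgeR adjusted p = 0.875).

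Il13ra2 (ENSMUSG00000031289, chromosome X, 147383476 to 147429192, minus strand) encodes a receptor that binds interleukin 13 tightly and is known chiefly as a decoy. GFPtotal libraries held 2.53 to 9.53 CPM with a median of 6.97 CPM, and GFPlow libraries 11.2 to 34.9 CPM with a median of 18.3 CPM. GFPlow 4, 5 and 6 were the high ones at 22.6, 34.9 and 27.6 CPM, while GFPlow 1, 2 and 3 stood at 13.6, 11.2 and 14.1 CPM. For Slc6a2 the high libraries were GFPlow 1, 2 and 3. The difference was −1.67 (SE 0.38) on the log2 scale, and GFPtotal stood at 31.4% of the GFPlow mean. Without GFPtotal 3, 4 and 5 it was −1.23, and Il13ra2 was not among the genes called.

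Of the 2 chains of the receptor through which interleukin 13 signals, Il13ra1 was higher in GFPtotal. It averaged 13.5 ± 3.59 CPM in GFPtotal and 5.204 ± 2.18 CPM in GFPlow (log2 fold change 1.38, SE 0.32, edgeR adjusted p = 0.0172), and every GFPtotal library lay above every GFPlow library. Il4ra, the gene of the other chain, averaged 27.2 ± 13.1 CPM in GFPtotal and 54.7 ± 16.8 CPM in GFPlow (log2 fold change −1.01, SE 0.34, edgeR adjusted p = 0.099996), with groups that overlapped, and was not among the genes called. Jak3, the gene of a cytokine receptor kinase, was higher too, averaging 3.14 ± 1.78 CPM in GFPtotal and 0.169 ± 0.133 CPM in GFPlow (log2 fold change 4.14, SE 0.68, edgeR adjusted p = 0.00161). Of 13 listed genes of interleukin 4 and 13 signalling 9 were tested, of which 2 were called higher and 0 lower (median 0.40). With GFPtotal 3, 4 and 5 left out neither was called, at log2 fold changes of 1.37 for Il13ra1 (adjusted p = 0.118) and 3.16 for Jak3 (adjusted p = 0.138). Stat6, the transcription factor gene of this pathway, averaged 38.9 ± 14.5 CPM in GFPtotal and 32.5 ± 5.02 CPM in GFPlow (log2 fold change 0.26, SE 0.22, edgeR adjusted p = 0.584).

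Cd200 (ENSMUSG00000022661, chromosome 16, 45382135 to 45409053, minus strand) encodes a membrane glycoprotein that restrains myeloid cells through its receptor. Levels of 7.45 to 16.9 CPM with a median of 13.1 CPM were read in GFPtotal, and of 22.0 to 49.96 CPM with a median of 39.4 CPM in GFPlow. Its gap between the groups was the widest of the 8 genes. It differed by −1.60 (SE 0.26) on the log2 scale. Cd200 is also expressed by endothelial cells, whose markers summed to 35.1 to 68.3 CPM in GFPtotal, against 51.7 to 90.2 CPM in GFPlow (exact permutation test, adjusted p = 0.127 over 10 lists, and 0.0390 where libraries were scaled by their totals alone). In GFPlow most of this sum was Eng, Kdr and Cdh5. Pecam1 was at most 1.13 CPM in GFPtotal and 0.509 CPM in GFPlow, and Tie1 and Egfl7 were at most 0.364 CPM in any library. Emcn leaned the other way, at 7.27 to 30.9 CPM in GFPtotal against 1.45 to 9.86 CPM in GFPlow. The part of endothelial cells in the result was not tested. The receptor gene Cd200r1 had 11 counts in all, with 0 in GFPlow. Of 10 listed inhibitory ligand and receptor genes 3 were tested, and edgeR called 0. Cd47, the gene of a widespread signal against engulfment, averaged 612 ± 98.1 CPM in GFPtotal and 423 ± 91.7 CPM in GFPlow (log2 fold change 0.53, SE 0.16, edgeR adjusted p = 0.0600). It was called higher by limma-voom (adjusted p = 0.0337) and by edgeR without GFPtotal 2 (adjusted p = 0.0472) or GFPlow 5 (adjusted p = 0.0206).

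Rasgrf1 (ENSMUSG00000032356, chromosome 9, 89909908 to 90026977, plus strand) encodes a calcium-responsive exchange factor that switches on Ras. Its level in GFPtotal ran from 42.5 to 103 CPM with a median of 77.3 CPM, and in GFPlow from 125 to 242 CPM with a median of 192 CPM. GFPlow 1 was the lowest of its group and GFPlow 5 the highest. The difference was −1.33 (SE 0.22) on the log2 scale, and GFPtotal stood at 39.7% of the GFPlow mean. Its closest relative Rasgrf2 had 21 counts over all 12 libraries. Among Ras genes and their other regulators 13 of 18 were tested and edgeR called 0, with a median of 0.03. Nf1, which encodes a large brake on Ras, averaged 263 ± 48.1 CPM in GFPtotal and 269.5 ± 26.1 CPM in GFPlow (log2 fold change −0.04, SE 0.14, edgeR adjusted p = 0.925).

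Arl4c (ENSMUSG00000049866, chromosome 1, 88673125 to 88702221, minus strand) encodes a small GTPase of the Arf-like group that recruits cytohesins, exchange factors for Arf6, to the plasma membrane. GFPtotal libraries held 14.6 to 68.3 CPM with a median of 35.7 CPM, and GFPlow libraries 79.0 to 131 CPM with a median of 101 CPM. GFPtotal 3, 4 and 5 stood at 14.6, 16.8 and 19.03 CPM, while GFPtotal 1, 2 and 6 stood at 52.4, 68.3 and 57.8 CPM. A log2 fold change of −1.48 (SE 0.37) was fitted, and −0.85 without GFPtotal 3, 4 and 5. Arl4a, a close relative, averaged 18.6 ± 6.96 CPM in GFPtotal and 12.4 ± 3.11 CPM in GFPlow (log2 fold change 0.59, SE 0.30, edgeR adjusted p = 0.289), and Arl4d had 24 counts in all, with 0 in GFPlow. Of 8 genes of this family and its partners 6 were tested, and 1 was called. That gene, the cytohesin gene Cyth3, was higher, averaging 91.3 ± 34.8 CPM in GFPtotal and 48.9 ± 6.27 CPM in GFPlow (log2 fold change 0.90, SE 0.22, edgeR adjusted p = 0.0233). Cyth3 was not called without GFPtotal 3 or 4 or GFPlow 3 alone (adjusted p = 0.0556 to 0.0806) or with GFPtotal 3, 4 and 5 left out (log2 fold change 0.34, adjusted p = 0.495), nor where libraries were scaled by their totals alone (adjusted p = 0.0764).

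Micall1 (ENSMUSG00000033039, chromosome 15, 79108972 to 79136897, plus strand) encodes a scaffold of tubular recycling endosomes that binds Rab GTPases and Ehd proteins. Levels of 4.15 to 16.6 CPM with a median of 11.4 CPM were read in GFPtotal, and of 19.1 to 47.6 CPM with a median of 34.3 CPM in GFPlow. GFPtotal 3 and GFPlow 4 were the lowest of their groups. It differed by −1.59 (SE 0.30) on the log2 scale. Of its 6701 exonic bases 29.7% are shared with an antisense gene, 1700088E04Rik, which had 0 to 25 counts per library, against 58 to 876 for Micall1. Strand was not used in the counting, so reads of the pair cannot be told apart there. The related gene Micall2 averaged 1.29 ± 1.76 CPM in GFPtotal and 1.05 ± 0.720 CPM in GFPlow (log2 fold change 0.27, SE 1.01, edgeR adjusted p = 0.920), a value that was negative under 3 of 20 other settings. Of 17 Mical family and recycling endosome genes 16 were tested and edgeR called 0 (median −0.18). Mical3, the most abundant, averaged 194 ± 94.3 CPM in GFPtotal and 339 ± 88.0 CPM in GFPlow (log2 fold change −0.81, SE 0.30, edgeR adjusted p = 0.136). It was called lower where libraries were scaled by their totals alone (adjusted p = 0.0230) and without GFPtotal 1 (adjusted p = 0.0467).

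Ahnak (ENSMUSG00000069833, chromosome 19, 8989284 to 9076919, plus strand) encodes a giant scaffold protein beneath the plasma membrane that binds the annexin A2 and S100A10 complex. Its level in GFPtotal ran from 531 to 836 CPM with a median of 700.3 CPM, and in GFPlow from 1012 to 1439.6 CPM with a median of 1302 CPM. It varied least of the 8 genes, with coefficients of variation of 15.7% in GFPtotal and 13.3% in GFPlow. The difference of −0.86 (SE 0.14) on the log2 scale was the smallest of the 8 and the only one under 2-fold. GFPtotal stood at 55.2% of the GFPlow mean.

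Among relatives and partners of Ahnak 7 of 8 were tested, of which 3 were called higher and 0 lower (median 0.39). Ahnak2, the closest relative, averaged 113 ± 76.9 CPM in GFPtotal and 30.7 ± 9.32 CPM in GFPlow (log2 fold change 1.88, SE 0.44, edgeR adjusted p = 0.0255). Its level was 212, 163 and 168 CPM in GFPtotal 3, 4 and 5, and 42.3, 36.4 and 55.3 CPM in GFPtotal 1, 2 and 6. With GFPtotal 3, 4 and 5 left out its log2 fold change was 0.52 (adjusted p = 0.479). It also lost its call when any 1 of GFPtotal 3, 4 and 5 or of GFPlow 2, 3, 4 and 6 was left out (adjusted p = 0.0518 to 0.0571), and with no filter on low counts (adjusted p = 0.0689). Dysf, a membrane repair gene, was higher in GFPtotal, averaging 5.01 ± 3.12 CPM in GFPtotal and 0.224 ± 0.278 CPM in GFPlow (log2 fold change 4.43, SE 0.81, edgeR adjusted p = 0.00354). Its log2 fold change was 5.36 without GFPlow 4 and 5.03 without GFPtotal 3, 4 and 5. Cacnb2, a calcium channel subunit gene, was higher as well, averaging 54.4 ± 18.8 CPM in GFPtotal and 5.79 ± 2.79 CPM in GFPlow (log2 fold change 3.23, SE 0.36, edgeR adjusted p = 4.08e-05). Anxa2 and S100a10, the genes of the complex that Ahnak binds, had log2 fold changes of −0.68 (adjusted p = 0.127) and −0.01 (adjusted p = 0.985).

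Klhl32 (ENSMUSG00000040387, chromosome 4, 24612554 to 24851124, minus strand) belongs to the kelch-like proteins, many of which bring substrates to the cullin 3 ubiquitin ligase. GFPtotal libraries held 2.20 to 24.0 CPM with a median of 8.39 CPM, and GFPlow libraries 29.7 to 83.1 CPM with a median of 55.9 CPM. GFPtotal 3, 4 and 5 stood at 5.07, 5.09 and 2.20 CPM and GFPtotal 1, 2 and 6 at 11.7, 24.0 and 17.5 CPM, a 10.9-fold spread from lowest to highest within the group. A log2 fold change of −2.34 (SE 0.48) was fitted, and −1.67 without GFPtotal 3, 4 and 5. An antisense gene, Gm11899, shares 1.51% of its exonic bases and had at most 11 counts in a library.

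Other kelch-like genes lay on both sides. Of 44 listed genes, cullin 3 and its partners included, 38 were found and 24 tested, of which 2 were called higher and 1 lower (median −0.14). Klhl23 averaged 14.0 ± 4.71 CPM in GFPtotal and 1.46 ± 1.34 CPM in GFPlow (log2 fold change 3.25, SE 0.65, edgeR adjusted p = 0.00665), with a log2 fold change of 4.21 by limma-voom. Klhl13 averaged 81.6 ± 24.1 CPM in GFPtotal and 42.8 ± 5.95 CPM in GFPlow (log2 fold change 0.93, SE 0.20, edgeR adjusted p = 0.00894), and was not called with GFPtotal 3, 4 and 5 left out (0.53, adjusted p = 0.233). Klhl7 was the only listed gene called lower, averaging 70.8 ± 14.3 CPM in GFPtotal and 112 ± 18.9 CPM in GFPlow (log2 fold change −0.66, SE 0.17, edgeR adjusted p = 0.0281). Its groups overlapped. The call was lost when any 1 of GFPtotal 3, 4, 5 and 6 or of GFPlow 2, 3 and 4 was left out (adjusted p = 0.0523 to 0.0745), and with GFPtotal 3, 4 and 5 left out together (−0.52, adjusted p = 0.239). Klhl31 and Klhl33 had 88 and 16 counts over all libraries.

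Over all lists, 83 of 141 relatives and partners were tested, of which 1 was called lower (1.20%, beside 0.854% of all tested genes) and 8 higher (9.64%, beside 4.55%). Their median log2 fold change was 0.04, beside −0.000599 over all genes. With GFPtotal 3, 4 and 5 left out, 3 of the lists' genes were called higher (Cacnb2, Dysf and Klhl23) and 0 lower by edgeR, which then called 50 genes lower over the whole table.

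**Figure D3:**
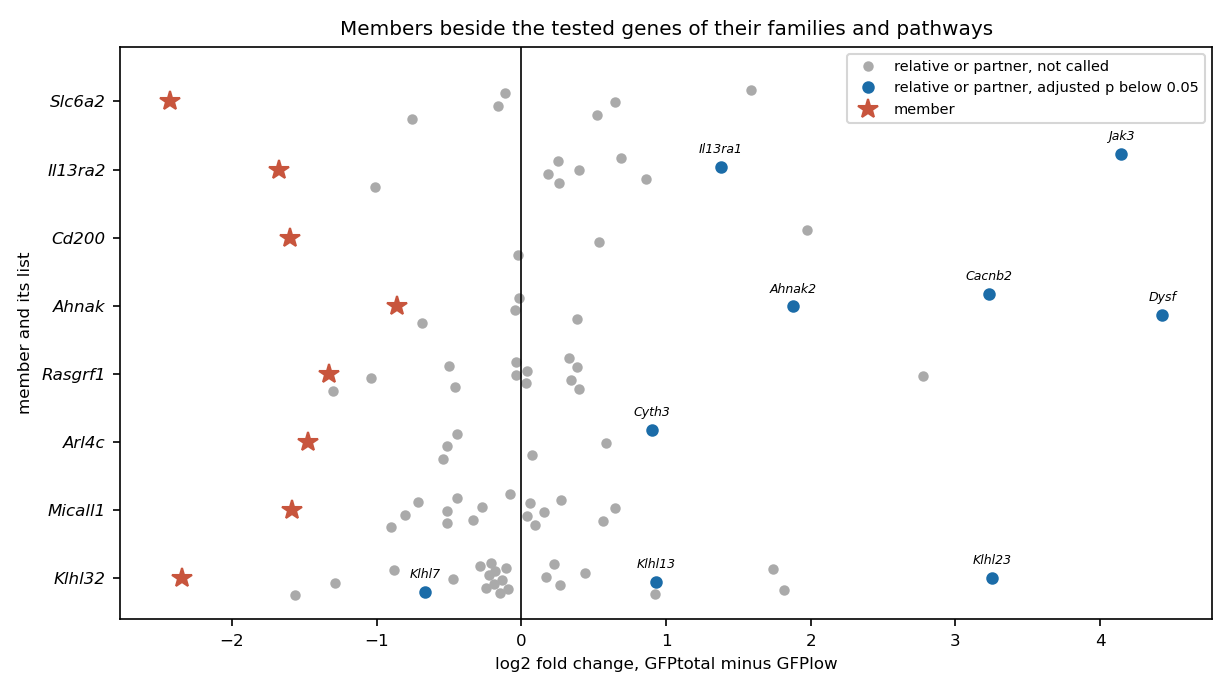
log2 fold change (GFPtotal minus GFPlow) of each member (star) and of the tested relatives and partners on its list (points, blue where the adjusted p was below 0.05). Of the blue points, 8 lie right of 0 and Klhl7 alone lies left of it.

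Within GFPtotal the genes split in their behaviour. GFPtotal fell into 2 sets of 3 libraries, so a relation over its 6 libraries cannot be tested and no correlation is given. Klhl32, Rasgrf1, Il13ra2, Arl4c and Micall1 were lower in each of GFPtotal 3, 4 and 5 than in any of GFPtotal 1, 2 and 6, a pattern that 15.7% of tested genes had. Cd200 had the opposite pattern, which 16.7% had, at 14.1 to 16.9 CPM in GFPtotal 3, 4 and 5, against 7.45 to 12.1 CPM in GFPtotal 1, 2 and 6. For Ahnak the sets overlapped, at 531 to 702 CPM and 698 to 836 CPM, as they did for Slc6a2, at 9.85 to 16.1 CPM and 4.28 to 11.2 CPM. Pericyte marker sums were 1245 to 1518 CPM in GFPtotal 3, 4 and 5, against 865 to 1173 CPM in GFPtotal 1, 2 and 6. Smooth muscle, mesothelial and epithelial marker sums were likewise higher in each of GFPtotal 3, 4 and 5. Fibroblast marker sums were lower there, at 19233 to 22830 CPM against 29595 to 32240 CPM in GFPtotal 1, 2 and 6, as were neuron marker sums. For the remaining marker lists the sets overlapped. The part of any cell type in the pattern was not tested.

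Within GFPlow the 28 pairs of members had Pearson's r from −0.82 to 0.77 with a median of −0.13. The lowest was Slc6a2 with Il13ra2 (r = −0.82, exact permutation p = 0.0625, adjusted p = 0.278; Spearman's rho −0.77, exact permutation p = 0.103; n = 6), and −0.94 without the 2 libraries farthest from the Slc6a2 median. For both of these genes GFPlow 1, 2 and 3 did not overlap GFPlow 4, 5 and 6. This split was read off the values of the same 2 genes. Its share over all tested genes was not counted, so nothing is drawn from it. The highest was Arl4c with Micall1 (r = 0.77, exact permutation p = 0.0667, adjusted p = 0.278; Spearman's rho 0.77, exact permutation p = 0.103; n = 6), and 0.98 without the 2 libraries farthest from the Arl4c median. Of these 28 pairs, 0 had an unadjusted exact permutation p below 0.05, and none passed adjustment over the 56 pairs of both groups.

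**Figure D4:**
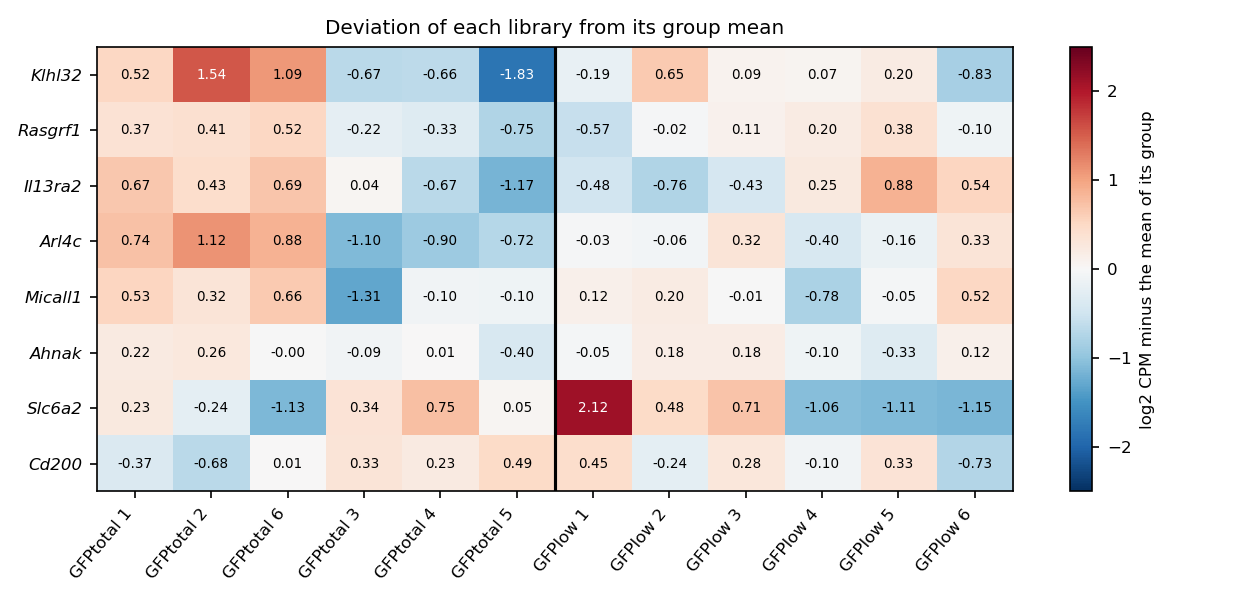
Deviation of each library from the mean of its group (log2 CPM) for the 8 genes, with GFPtotal on the left of the line and GFPlow on the right. GFPtotal 3, 4 and 5 lie below their group mean for Klhl32, Rasgrf1, Arl4c and Micall1, and the largest positive deviation is Slc6a2 in GFPlow 1, at 2.12.

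The genes whose library-to-library pattern was most like each member were different for each. Likeness was Pearson's r of log2 CPM over 12 libraries after the group means were removed, as a description. GFPtotal 3, 4 and 5 enter this measure, so r within the 6 GFPlow libraries is given beside the first gene. For Slc6a2 it was Sfxn2, a mitochondrial sideroflexin gene (r = 0.95, and 0.99 within GFPlow), then Tnrc6c and Nup155 (0.87 and 0.85). For Il13ra2 it was Nova1, an RNA-binding protein gene (0.94, and 0.96 within GFPlow), then Lpp and Rybp (0.92 and 0.92). Cd200 was most like Mr1, which encodes an antigen-presenting molecule (0.93, and 0.93 within GFPlow), then Tanc1 and Tet1 (0.92 and 0.89). Rasgrf1 was most like the basement membrane collagen gene Col4a4 (0.97, and 0.93 within GFPlow), then Tmem45a and Utrn (0.96 and 0.95). Klhl32 was most like the tyrosine kinase gene Frk (0.96, and 0.93 within GFPlow), then Eif2s2 and Mark3 (0.95 and 0.95). Arl4c was most like Chsy1, a chondroitin synthase gene (0.97, and 0.61 within GFPlow), then Sdc1 and Drp2 (0.96 and 0.96). Ahnak was most like Serf2 (0.96, and 0.94 within GFPlow), then Pdia6 and Lss (0.96 and 0.94). Micall1 was most like the alanyl-tRNA synthetase gene Aars (0.92, and 0.71 within GFPlow), then Ywhag and Derl1 (0.91 and 0.90). By edgeR 0 of these 24 genes were called between the groups (adjusted p of 0.0863 or more).

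Promoter windows of RefSeq (GRCm38.p6, 250 bases before to 50 after the annotated start) were matched by symbol for 7 of the 8 genes, Slc6a2 being the other. Those of Klhl32, Rasgrf1, Il13ra2 and Cd200 are shown because Klhl32, Rasgrf1 and Il13ra2 were low in the same GFPtotal libraries in which Cd200 was high. Arl4c and Micall1 were low in the same libraries, and their windows are not shown. They lie at chr4:24851075-24851374 (minus strand), chr9:89909525-89909824 (plus strand), chrX:147429143-147429442 (minus strand) and chr16:45409004-45409303 (minus strand). The Rasgrf1 window lies upstream of the first exon used in the counting. Capitals mark matches to 9 motifs searched on both strands, and no matches overlapped.
Klhl32: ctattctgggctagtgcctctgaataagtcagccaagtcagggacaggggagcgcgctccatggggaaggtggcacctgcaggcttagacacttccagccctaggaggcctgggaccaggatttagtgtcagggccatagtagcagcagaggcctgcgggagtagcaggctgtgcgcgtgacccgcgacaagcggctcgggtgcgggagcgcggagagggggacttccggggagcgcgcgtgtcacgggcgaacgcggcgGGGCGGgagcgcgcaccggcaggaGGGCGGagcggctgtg
Rasgrf1: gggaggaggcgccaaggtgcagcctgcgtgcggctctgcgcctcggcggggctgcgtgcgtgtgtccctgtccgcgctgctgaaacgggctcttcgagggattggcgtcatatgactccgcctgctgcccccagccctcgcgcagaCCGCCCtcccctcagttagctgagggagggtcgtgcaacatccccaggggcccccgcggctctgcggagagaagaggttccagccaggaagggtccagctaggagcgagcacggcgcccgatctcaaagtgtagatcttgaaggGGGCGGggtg
Il13ra2: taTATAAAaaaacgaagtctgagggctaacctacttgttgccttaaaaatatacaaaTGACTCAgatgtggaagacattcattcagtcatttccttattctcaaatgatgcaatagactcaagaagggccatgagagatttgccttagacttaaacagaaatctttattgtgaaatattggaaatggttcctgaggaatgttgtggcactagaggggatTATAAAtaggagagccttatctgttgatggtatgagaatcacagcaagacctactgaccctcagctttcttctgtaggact
Cd200: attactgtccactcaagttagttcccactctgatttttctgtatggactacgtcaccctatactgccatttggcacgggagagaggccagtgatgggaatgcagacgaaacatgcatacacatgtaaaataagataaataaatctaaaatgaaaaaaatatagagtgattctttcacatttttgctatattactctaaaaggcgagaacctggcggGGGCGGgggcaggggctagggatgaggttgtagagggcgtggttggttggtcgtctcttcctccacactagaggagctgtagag
The windows shown are unlike in base composition. Klhl32 and Rasgrf1 are 68.0% and 68.3% G and C with 27 and 26 CpG, while Il13ra2 is 37.7% with 1 and Cd200 45.0% with 8. Of the windows not shown, Arl4c, Micall1 and Ahnak are 74.0%, 77.3% and 67.3% G and C with 44, 38 and 22 CpG. The median over 27025 genes was 52.7%. The GC box GGGCGG, a site of Sp factors, was found in 6 of the 7 windows and in 35.9% of all windows, and not in that of Il13ra2. The Il13ra2 window alone held the TATA box TATAAA (14.2% of all windows), with 1 match beginning 31 bases before the start, and the AP-1 motif TGACTCA (5.17% of all windows). The other 6 motifs were found in 0 of the 7 windows. These were the cyclic AMP element TGACGTCA (1.88% of all windows), the nuclear receptor motif AGGTCA (16.04%), the E-box CACGTG (7.24%), the Gli motif GACCACCCA (0.244%), the Smad motif GTCTAGAC (0.211%) and the GATA motif TGATAA (9.26%). A match is a description of letters in the window.

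The 8 differences were negative under all 20 other settings, from −2.84 to −0.73, a description because the genes were selected on this contrast. Without GFPlow 6, the library with the deviating name, they were −2.62 to −0.84. Leaving out GFPtotal 3, 4 and 5 made 6 of the 8 smaller, and Cd200 (−2.002) and Slc6a2 (−2.84) larger. Klhl32 (−1.67) and Arl4c (−0.85) moved by more than 1.5-fold. Il13ra2, Micall1, Rasgrf1 and Ahnak stood at −1.23, −1.22, −0.99 and −0.73.

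**Figure D5:**
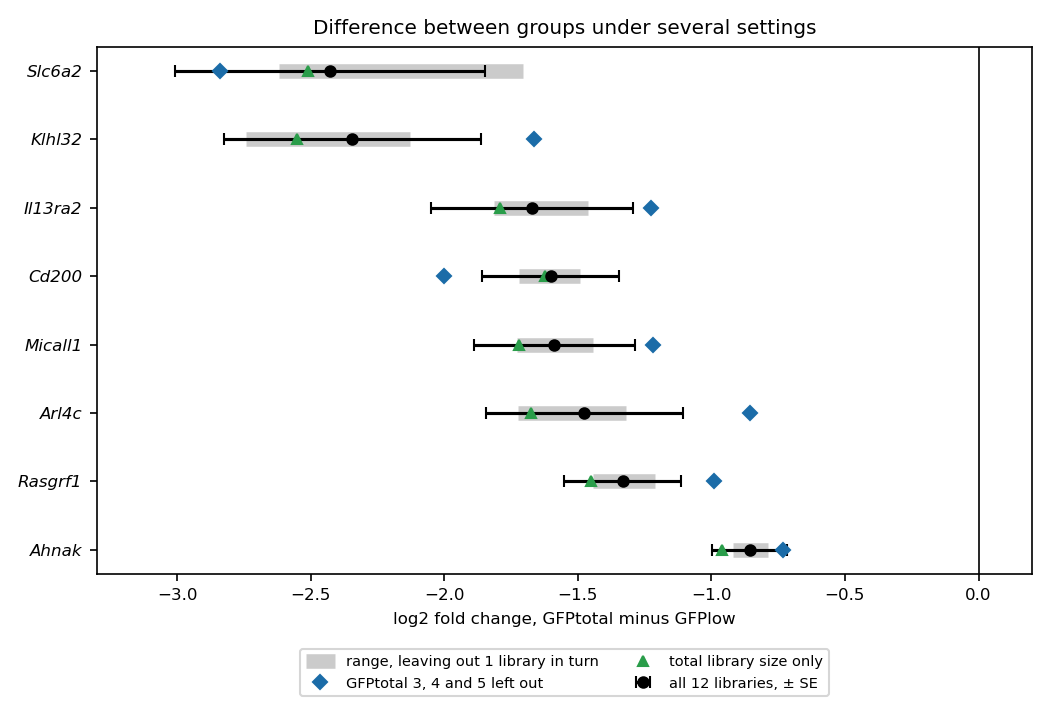
log2 fold change (GFPtotal minus GFPlow) of the 8 genes with all 12 libraries (black, ± SE), as a range over leaving out each library in turn (grey bar), without GFPtotal 3, 4 and 5 (diamond) and with libraries scaled by their totals alone (triangle). All points lie left of 0, between −2.84 and −0.73.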

How the data were processed

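RNA was sequenced in 6 GFPtotal and 6 GFPlow libraries. Raw counts were deposited: per the file headers, featureCounts 1.6.4 assigned read pairs to exons by gene of Ensembl release 84 (GRCm38), at a mapping quality of at least 10 and without strand. The submitters' processing notes also name cutadapt and SAMtools, and no source used here names the aligner. The series table held the same counts in 12 of 12 libraries. Symbols were found for 47224 of 47729 genes (GENCODE M21).

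Genes were kept by filterByExpr, scaled by TMM and tested in edgeR 4.0.16 (R 4.3.3) with the quasi-likelihood F test, GFPtotal minus GFPlow, two-sided, with Benjamini-Hochberg adjustment over 14523 genes. The log2 CPM used a prior count of 2. The fit was tested on simulated data. DESeq2 1.42.0, limma-voom 3.58.1, other scalings and filters and left-out libraries were alternatives. No libraries of 1 group agreed within sampling noise (chi-square per degree of freedom of at least 19.5). Exact permutation tests used 924 assignments of libraries or 720 orders of 6.

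The members, the 8 lists of relatives and the 10 marker lists were chosen with earlier results of these data known. The text names the members, listed paralogs, up to 4 called genes of each list (the most abundant where none was called) and the 3 genes most like each member among 6561 genes with a mean log2 CPM of 3 or more. Th, Dbh, Slc18a2, Adra1a, Stat6, Anxa2, S100a10, Syt1, Nefl, Il4ra, Smoc2 and Col1a1 were named after their values were seen. So were the endothelial markers Eng, Kdr, Cdh5, Pecam1, Tie1, Egfl7 and Emcn, and the smooth muscle markers Smtn, Des, Acta2, Myh11, Actg2 and Lmod1.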

Additional observations from a re-analysis of the deposited data

Results flagged for a closer look

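In 66 groups of 6 libraries (the members, the tested named relatives and the marker sums, each in both groups), 4 had a library far from the others by Dixon's test. Chance flags about 1 group in 20. Slc6a2 in GFPlow 1 stood at 165 CPM, and the next library at 61.7 CPM. The neuron marker sum of the same library was 8.09 CPM, below the other 5 of GFPlow at 16.5 to 21.3 CPM. Of that 8.09 CPM, 7.27 CPM was Syt1. Dysf in GFPlow 4 stood at 0.767 CPM, and Micall2 in GFPtotal 2 at 4.70 CPM, the highest of their groups. The causes were not tested.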

How the results depend on the processing

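With all libraries 785 genes were called, 124 of them lower in GFPtotal and 661 higher, and 1 and 8 of the listed relatives. Without GFPtotal 3, 4 and 5 the counts were 295, 50 and 245, with 0 relatives lower and 3 higher. DESeq2 called 1384, 350 lower and 1034 higher (6 relatives lower), limma-voom 273 lower (4 relatives), and scaling by totals alone 257 lower (5 relatives). The share of calls that were higher was 84.2% by edgeR, 66.3% with totals alone, 72.4% with limma-voom and 74.7% with DESeq2. Without mitochondrial genes 2 relatives were lower. Leaving out each library in turn gave 467 to 970 genes, 61 to 179 lower and 406 to 791 higher, with 0 to 2 relatives lower and 6 to 10 higher. The cause of these changes was not tested. Same-numbered libraries deviated together with r of −0.139 to 0.0892, and 2 of 6 correlated best with their own number. GFPtotal 3, 4 and 5 enter this measure, so it cannot show whether same-numbered libraries share a mouse. The labels do not state it. With the replicate number as a block 582 genes were called, and Il13ra2, Cyth3 and Klhl7 were not. The lowest counts of Klhl32, Il13ra2 and Slc6a2 in a library were 33, 38 and 48.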

Other observations

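Mesothelial marker sums were lower in the GFPtotal libraries, at 43.5 to 79.7 CPM in GFPtotal, against 73.9 to 102 CPM in GFPlow (exact two-sided permutation test, adjusted p = 0.0173 over 10 lists, and 0.0830 where libraries were scaled by their totals alone). Nearly all of this was Wt1, a transcription factor gene also expressed in uterine stroma. Without it the sums were at most 1.20 CPM in GFPtotal and 2.33 CPM in GFPlow, and Msln and Upk3b, which define mesothelium, had 0 counts in all libraries. Smooth muscle markers were higher in GFPtotal, at 187 to 392 CPM in GFPtotal, against 45.8 to 94.1 CPM in GFPlow (exact permutation test, adjusted p = 0.00722). Epithelial markers summed to 1.34 to 12.2 CPM in GFPtotal, against 6.46 to 12.5 CPM in GFPlow (exact permutation test, adjusted p = 0.273, and 0.0238 without GFPtotal 3, 4 and 5). For leukocytes the sums were 0.324 to 3.502 CPM in GFPtotal, against 0.597 to 4.22 CPM in GFPlow (exact permutation test, adjusted p = 0.820). Erythroid markers, all of it Alas2, summed to 8.59 to 15.8 CPM in GFPtotal, against 6.46 to 15.8 CPM in GFPlow (exact permutation test, adjusted p = 0.957).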
